A study of Homo sapiens with 1 sample.

Results

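The tubular and metabolic solute carriers described here were the protein-coding genes whose symbol began with SLC2A, SLC5A, SLC6A, SLC7A, SLC13A, SLC16A, SLC22A or SLC34A followed by a digit. The rule took 104 of 20033 protein-coding genes in 8 families, namely 15 SLC2A, 12 SLC5A, 19 SLC6A, 14 SLC7A, 5 SLC13A, 14 SLC16A, 22 SLC22A and 3 SLC34A genes. It used names only and no measured value. Of the 104 members, 2 carry a family symbol without being transporters. SLC2A4RG encodes a transcription factor and SLC7A6OS is named for lying opposite SLC7A6.

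Open chromatin was mapped by ATAC-seq, in which a transposase cuts and tags accessible DNA, in 786-O cells, an established line of clear cell renal cell carcinoma with loss of the tumour suppressor VHL. The only sample was an empty vector control, the baseline for a study of the chromatin remodelling subunit DPF3a, and there was 1 library without a replicate. No p-value is therefore given, and all intervals below are exact 95% intervals that cover counting error only. Intervals of shares treat the genes as independent draws. The list held 88615 peaks on the primary chromosomes. The value of a peak was its fold, the depth at the summit over a genome-wide background, and the summit depth (pileup) ranged from 9 to 300 over the list. Of 7 markers of renal epithelium and clear cell carcinoma, 5 had a promoter peak, among them PAX8 at a fold of 31.95 and VIM at 47.92, while CA9 had none. None of the 7 leukocyte, endothelial and hepatocyte markers had one.

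Solute carriers move sugars, amino acids, organic acids, vitamins, ions and drugs across membranes. In the proximal tubule, from which clear cell carcinoma is thought to arise, apical carriers take glucose, amino acids, phosphate and citrate back from the filtrate, and basolateral organic anion and cation carriers secrete drugs and waste products. Tumour cells lacking VHL rely on glycolysis, which needs carriers for glucose uptake and lactate export.

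The first question was which of these genes had an accessible promoter. A gene was called open when a peak summit fell between 1 kb upstream and 100 bp downstream of the start site (TSS) of one of its transcripts, and closed otherwise, which says only that no peak was listed there. A summit was found there in 43 of the 104 members (41.3%, 31.8 to 51.4), against a background of 61.4% of all protein-coding genes. The other 237 SLC genes did not share the low value, with 146 open (61.6%, 55.1 to 67.8). The median fold of the members' open promoters was 18.55 (10.31 to 26.28, from the order of the 43 values), an interval that contained the 25.76 of all genes and the 24.99 of the other SLC genes. Of the 43, 15 lay above the median of all genes.

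The families differed widely. SLC16A, the monocarboxylate carriers, led with 11 of 14 open (78.6%, 49.2 to 95.3), followed by SLC2A, the facilitative sugar carriers, with 10 of 15 (66.7%, 38.4 to 88.2). SLC7A, the amino acid exchangers and cationic amino acid carriers, had 7 of 14 open (50.0%, 23 to 77), and SLC5A, the sodium-coupled sugar and solute carriers, had 5 of 12 (41.7%, 15.2 to 72.3). At the low end, SLC22A, the organic ion carriers, had 5 of 22 open (22.7%, 7.82 to 45.4), and SLC6A, the sodium- and chloride-dependent carriers of amino acids and neurotransmitters, had 3 of 19 (15.8%, 3.38 to 39.6). The interval of SLC16A did not overlap those of SLC22A and SLC6A, whereas every other pair of families had overlapping intervals. Neighbouring genes are not independent, and 6 SLC22A genes without a promoter peak lie in 1 stretch of 473.9 kb, so these intervals are too narrow. SLC13A, with 1 of 5 open, and SLC34A, with 1 of 3, were too small to be placed.

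**Figure D1:**
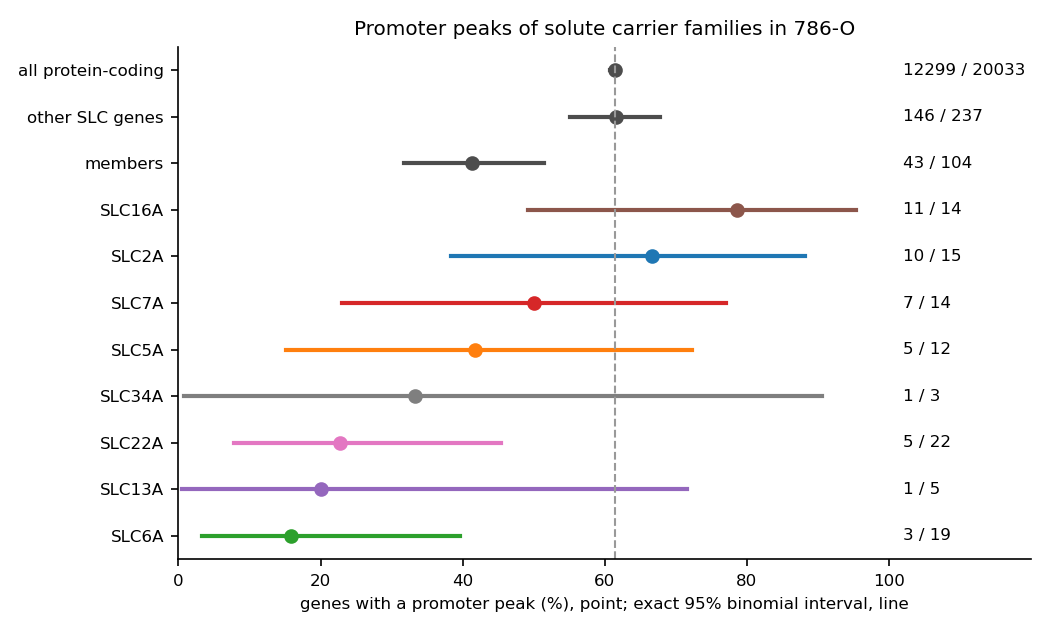
Share of genes with a promoter peak (points, in percent) with exact 95% binomial intervals (lines) for all protein-coding genes, the other SLC genes, the 104 members and each family, with the counts at the right. The dashed line is the background of 61.4%; SLC6A and SLC22A lie wholly below it.

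Share and peak height did not follow the same order in every family. SLC16A had the largest share of open members but a median promoter fold of 12.88, and only SLC16A1, SLC16A7 and SLC16A3 exceeded the median of all genes. Folds use 1 genome-wide background, while the median promoter fold was 20.61 on chromosome 17 and 32.46 on chromosome 2. SLC16A6, on chromosome 17, equalled the median there. Family folds were not adjusted for this. The 5 open SLC22A promoters had a median of 37.1. SLC6A was low in share, and its 3 open promoters had a median of 7.73, with SLC6A6 at 42.25. SLC2A was high in share with a median of 22.16. Each gene entered with its highest peak at any start. The SLC22A median was the value of SLC22A23 at an internal start, and its canonical promoter had 7.73. Family medians rest on few genes and no intervals were computed for them. With peaks restricted to a score above 200, a stricter significance cut, the members' share fell to 26.9% (all genes 52.0%) and that of SLC16A to 42.9%, with 6 of 14 open, below SLC2A with 8 of 15 (53.3%). SLC22A then stood at 18.2% (4 of 22) and SLC6A at 5.26% (1 of 19). No intervals were computed at that cut.

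Promoters rich in CpG dinucleotides are often open in many cell types, so the members were also read by the observed over expected CpG content of the promoter window. The low class (under 0.4) held 42.3% of the members and 27.4% of all genes. Among these low-CpG members 9 of 44 were open (20.5%, 9.8 to 35.3; all genes 24%), in the middle class 10 of 21 (47.6%, 25.7 to 70.2; all genes 58.3%) and in the high class 24 of 39 (61.5%, 44.6 to 76.6; all genes 81.1%). The high class was the one in which the members' interval lay below the value of all genes. At the rates of all genes in these classes, 54.4 members would have been open (52.3%) in place of 43. For the other SLC genes the corresponding values were 147.9 and 146. The classes depended on the window. With CpG content taken within 250 bp of the canonical TSS, 10 of 36 low-CpG members (27.8%), 2 of 10 in the middle class (20%) and 31 of 58 in the high class (53.4%) were open. The members' share then did not rise from the low to the middle class, and shares of all genes were not computed for that window.

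**Figure D2:**
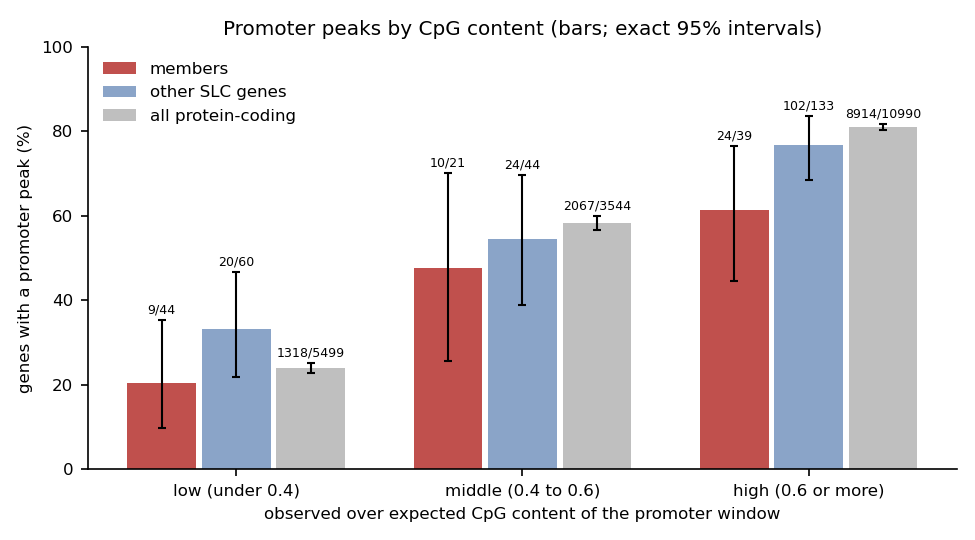
Share of genes with a promoter peak (bars, in percent) in 3 classes of promoter CpG content, for the members, the other SLC genes and all protein-coding genes, with exact 95% intervals and counts. The share rose with CpG content in each set, and members of the high class stood at 61.5% against 81.1% for all genes.

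CpG content did not set the families apart in the same way. SLC6A had 8 members of high CpG content, of which 2 were open, and the count at the rates of all genes was 11.2 of 19 against 3 found. SLC22A had 14 low-CpG members, of which 1 was open, and 7 of high content, of which 3 were open; its count at those rates was 9.6 against 5 found. SLC16A had 11 open against 8.5, with all 6 high-CpG members open. For SLC2A (10 against 9.2), SLC5A (5 against 5.0) and SLC7A (7 against 7.5) the counts lay close together.

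Among the sugar carriers, SLC2A8, an intracellular glucose carrier, had the highest promoter peak of all members, with a pileup of 166 and a fold of 86.05 (73.54 to 100.1). This exceeded 98.6% of open gene promoters and was 2.83 times the median promoter fold of chromosome 9. SLC2A1, the glucose carrier of most proliferating cells, had a peak of 45.35 at its canonical promoter and one of 48.44 (39.19 to 59.22) at an internal TSS, 26.6 kb downstream. SLC2A9, a urate carrier of the proximal tubule, had 43.8 (35.04 to 54.1) at a TSS 2.42 kb inside the canonical gene and none at the canonical promoter. SLC2A3, a high-affinity glucose carrier, and SLC2A12 both stood at 11.85 (7.62 to 17.68). SLC2A4, the insulin-responsive carrier, had 18.55 with the summit 893 bp upstream, and SLC2A6, a lysosomal family member, had 25.76. SLC2A10 had 7.73 and SLC2A14 5.67. The transcription factor gene SLC2A4RG had 31.43.

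Among the sugar carriers without a promoter peak were SLC2A2, the basolateral carrier of tubule and liver, the fructose carrier SLC2A5, SLC2A7, SLC2A11 and SLC2A13, a myo-inositol carrier. SLC2A13 lay just outside the window, with a summit of fold 22.67 at 613 bp downstream of its TSS. Around the summit of SLC2A8 and of the canonical SLC2A1 promoter, the sequences below are shown because they are the highest promoter peak and the best known glucose carrier of the set. They are windows of 50 bases to each side of the summit on the gene's own strand, hg38, chr9:127396903-127397003 (plus) and chr1:42958922-42959022 (minus), in no annotated exon. Capitals mark CCAAT and the SP/KLF element GGGCGG on either strand.
SLC2A8: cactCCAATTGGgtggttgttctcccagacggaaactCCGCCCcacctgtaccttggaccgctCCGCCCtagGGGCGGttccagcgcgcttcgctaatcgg
SLC2A1: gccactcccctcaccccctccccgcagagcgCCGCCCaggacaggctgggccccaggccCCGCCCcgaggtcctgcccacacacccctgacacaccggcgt

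SLC2A8 held 3 SP/KLF elements and 2 CCAAT elements on opposite strands, and SLC2A1 held 2 SP/KLF elements. GGGCGG was present in the windows of 13 of 62 member promoter peaks (21%, 11.7 to 33.2) and in 29.1% of the promoter peaks of all genes. CCAAT was present in 8.06% and 15.7%.

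Among the lactate carriers, SLC16A1, which moves lactate and pyruvate both ways, had 37.1 (29.09 to 46.66) with the summit 112 bp upstream of a TSS, a window it shared with the antisense gene SLC16A1-AS1. SLC16A3, the lactate exporter of glycolytic cells, had 5 promoter peaks, of which the highest, 26.28 (19.64 to 34.48), lay 11.3 kb upstream of the canonical TSS at another start, and its canonical promoter had 12.88. SLC16A7, a high-affinity pyruvate carrier, had 36.07 with the summit 2 bp upstream of another start. This was 131 bp downstream of the canonical TSS, just outside its window, and the peak spanned that TSS. SLC16A6 had 20.61. SLC16A5 at 12.88, SLC16A9 and SLC16A13 at 10.31, SLC16A12 at 9.28 and SLC16A4 and SLC16A10 at 7.21 had lower promoter peaks. SLC16A8, the lactate carrier of the retinal pigment epithelium, SLC16A11 and SLC16A14 had no promoter peak, SLC16A14 with a summit 987 bp from a TSS.

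In the amino acid exchangers, SLC7A11, the cystine importer that supplies glutathione synthesis, was highest with 40.71 (32.29 to 50.68), 100 bp upstream of its TSS and in a promoter of low CpG content (0.326). SLC7A1, the main cationic amino acid carrier, had 25.25. SLC7A6 and SLC7A7, which exchange cationic for neutral amino acids, had 21.13 and 15.46, neither at the canonical TSS, and the peak of SLC7A7 lay in a window shared with MRPL52. SLC7A5, an essential amino acid importer, had 9.28 (5.62 to 14.54), and SLC7A2 had 8.24. The promoter of SLC7A5 has 2 near-identical stretches elsewhere on chromosome 16 (96.5% and 96.1% identity over 1101 and 1108 aligned bases), which the authors' mapping-quality filter could thin; the effect on its fold was not tested. The gene opposite SLC7A6, SLC7A6OS, had 31.95 in a window shared with PRMT7. SLC7A3, SLC7A4, SLC7A8, SLC7A9, SLC7A10, SLC7A13 and SLC7A14 had no promoter peak, among them SLC7A9, the cystine carrier of the renal brush border.

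The SLC7A11 summit is shown because it was the highest open promoter in the low CpG class after SLC2A9. The window is hg38 chr4:138242399-138242499, minus strand, upstream of the TSS and in no exon. Capitals mark TGATGCAA and its reverse complement, a form of the element bound by ATF4, a factor of the amino acid starvation response. This form was added after the window had been seen; the form searched first, TGATGNAAT, was absent.
SLC7A11: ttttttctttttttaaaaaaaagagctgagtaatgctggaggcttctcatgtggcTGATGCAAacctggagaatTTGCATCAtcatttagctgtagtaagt

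It occurred 2 times there and in no other of the 62 member promoter windows. Over all genes it was present in 0.192% of promoter peaks, which cannot be set against the members, since the letters were read from this window. One further match lay in a gene-body peak of SLC7A11, of fold 8.76, among 3 of 202 gene-body windows (1.49%, 0.307 to 4.28; all genes 0.518%).

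The sodium-coupled sugar and solute carriers held low and medium peaks. SLC5A6, a vitamin carrier, had 22.67 in a window shared with ATRAID, and SLC5A3, the myo-inositol carrier of hypertonic stress, had 15.97 in one shared with MRPS6. In both, the peak could not be assigned to one of the pair of genes. SLC5A10 had 7.21, and SLC5A9 had 5.15 with a pileup of 9, the lowest in the list. SLC5A2, the main glucose reabsorber of the early proximal tubule, had 27.83 (20.97 to 36.24), but the summit lay 1.51 kb downstream of the canonical TSS, 115 bp upstream of an internal start, and the canonical promoter had none. When only transcripts annotated as protein-coding were used, SLC5A2 was closed. No promoter peak was listed for SLC5A1, the glucose carrier of the late proximal tubule and gut, the iodide carrier SLC5A5, the choline carrier SLC5A7 and the sodium-lactate carriers SLC5A8 and SLC5A12, with SLC5A4 and SLC5A11.

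Among the phosphate carriers, SLC34A1, the main phosphate reabsorber of the proximal tubule, had 26.28 (19.64 to 34.48) at a summit 87 bp upstream of an internal start and 5.13 kb downstream of the canonical TSS, and it too was closed on protein-coding transcripts alone. A second peak of 52.56 (42.91 to 63.75) lay in an intron of a longer transcript, 4.9 kb upstream of the canonical TSS. SLC34A2, the lung and gut phosphate carrier, had no promoter peak but an intronic one of 36.07, and SLC34A3, a further renal phosphate carrier, had no peak of either kind.

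The windows at the internal summits of SLC5A2 (hg38 chr16:31484582-31484672, plus strand, the 91 bases in no exon) and SLC34A1 (chr5:177389510-177389610, plus strand) and at the intronic summit of SLC34A1 (chr5:177379482-177379582, plus strand) are given because they carried the peaks of these tubular genes. Capitals mark the TEAD element GGAATG in the first and the AP-1 element TGACTCA in the last.
SLC5A2: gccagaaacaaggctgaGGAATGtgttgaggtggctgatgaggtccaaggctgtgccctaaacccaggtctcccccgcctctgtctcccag
SLC34A1 internal start: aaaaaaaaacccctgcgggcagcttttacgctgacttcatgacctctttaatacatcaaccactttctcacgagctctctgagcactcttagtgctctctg
SLC34A1 intron: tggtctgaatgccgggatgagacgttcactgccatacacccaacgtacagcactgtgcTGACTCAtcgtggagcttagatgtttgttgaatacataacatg

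None of the 13 motifs searched was present at the internal start of SLC34A1. GGAATG occurred in 9.68% of member promoter windows (3.63 to 19.9; all genes 5.56%).

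In SLC22A, SLC22A5, the high-affinity carnitine carrier, had 80.38 (68.31 to 93.99) at a TSS 18.2 kb downstream of the canonical one and 33.49 at the canonical promoter. Its neighbour SLC22A4 had 46.38 (37.34 to 56.95), 134 bp upstream of its TSS. SLC22A23 had 37.1 at an internal start 132 kb inside the gene and 7.73 at the canonical one. SLC22A11, an apical urate and organic anion carrier, had 21.13, and SLC22A18 had 6.18. The organic cation carriers SLC22A2 and SLC22A3 and the organic anion carriers of the tubule, SLC22A6, SLC22A8, SLC22A7, SLC22A12, SLC22A13 and SLC22A24, had no promoter peak, nor had SLC22A9, SLC22A10, SLC22A14, SLC22A15, SLC22A16, SLC22A17, SLC22A25 and SLC22A31. SLC22A15 was the nearest miss, with a summit 150 bp from a TSS.

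In SLC6A only 3 genes were open. SLC6A6, the taurine carrier, had 42.25 (33.66 to 52.39) at an internal start 29.7 kb downstream and 25.76 at the canonical promoter. SLC6A8, the creatine carrier, had 7.73 and SLC6A15, a neutral amino acid carrier, 6.18. The renal amino acid carriers SLC6A18, SLC6A19 and SLC6A20 were closed, as were the remaining members, SLC6A14, SLC6A16 and SLC6A17 among them. In SLC13A, the dicarboxylate carrier SLC13A3 had 8.76 (5.23 to 13.9), 33.0 kb upstream of the canonical TSS at another start. The sulfate carriers SLC13A1 and SLC13A4, the succinate carrier SLC13A2 and the citrate carrier SLC13A5 were closed.

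**Figure D3:**
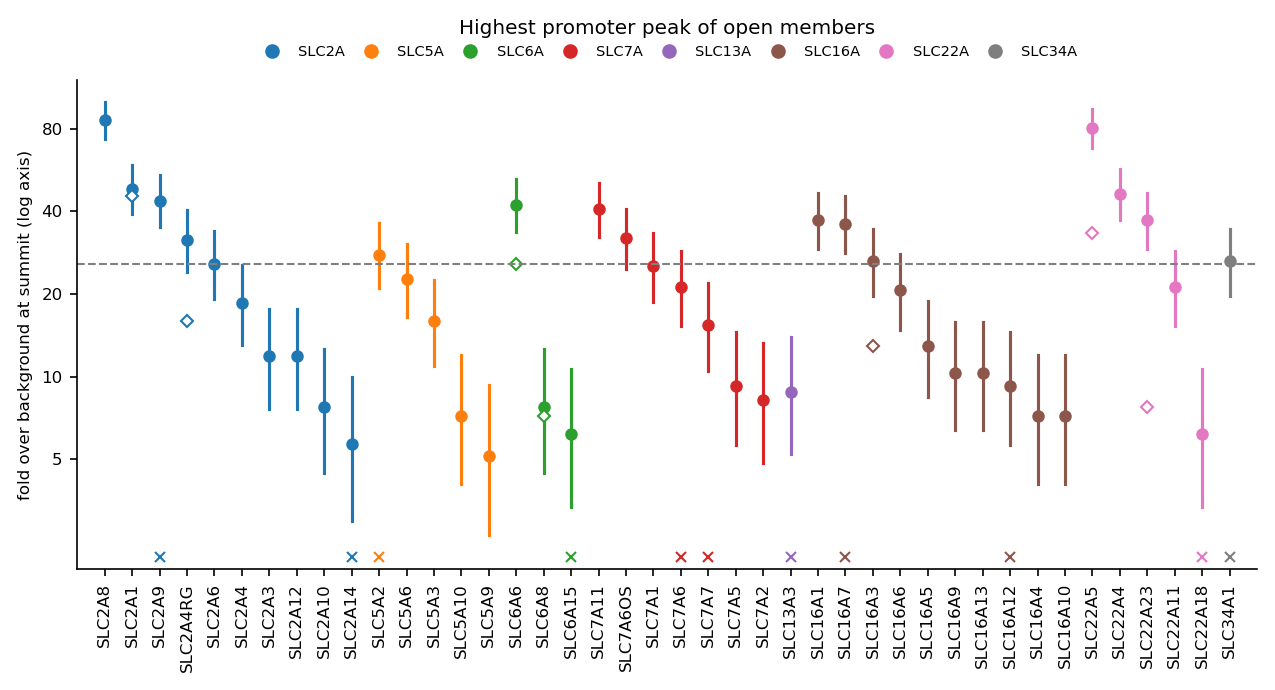
Highest promoter peak of 42 of the 43 open members (filled points, fold over background on a log axis) with exact Poisson 95% intervals, coloured by family. An open diamond gives the canonical promoter where another start had the higher peak (7 members). A cross marks members with no summit in the canonical promoter window (11). The dashed line is the median of all genes, 25.76.

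The place of the summit within a gene varied. Over the 43 open members the median distance from the summit to the nearest TSS was 87 bp, 34 summits lay within 200 bp and 29 lay upstream. In 18 members the highest promoter peak was not at the canonical TSS, and 11 of these had no canonical promoter peak at all. A promoter window of another protein-coding gene held the same summit in 4 members. Summit positions and shared windows were not counted for all open genes, so they cannot be called traits of the members. With the canonical transcript alone, 32 members were open (30.8%), against 52.2% of all genes.

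Lists of related carriers, drawn up with earlier results of these data known and so no independent evidence, were counted across the families against the background of 61.4%. All 6 members of the list for hypoxia and glycolytic exchange, SLC2A1, SLC2A3, SLC7A5, SLC7A11, SLC16A1 and SLC16A3, were open (54.1 to 100%), with a median fold of 31.69. SLC7A5 was no longer open at a score above 200. In the list for amino acid starvation 3 of 5 were open, SLC7A1, SLC7A5 and SLC7A11, but not SLC6A9 and SLC7A3. Of 31 proximal tubule carriers 11 were open (35.5%, 19.2 to 54.6), with a median fold of 21.13: SLC2A9, SLC5A2, SLC5A10, SLC7A7, SLC13A3, SLC16A9, SLC16A10, SLC22A4, SLC22A5, SLC22A11 and SLC34A1. A low CpG content was found in 21 of the 31, of which 5 were open. None of 10 neurotransmitter carriers was open, which allows a share of up to 30.8%. These included the carriers of GABA (SLC6A11 and SLC6A13), noradrenaline (SLC6A2), dopamine (SLC6A3), serotonin (SLC6A4), glycine (SLC6A5 and SLC6A9), proline (SLC6A7) and betaine (SLC6A12). None of 7 liver carriers was open, SLC2A2, SLC13A5, SLC22A7, SLC22A9, SLC22A10 and SLC22A25 among them, which allows up to 41%.

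The second question was where peaks lay inside the genes, outside every promoter. At least 1 gene-body peak was present in 59 of 104 members (56.7%, 46.7 to 66.4), against a background of 49.7% of all protein-coding genes. The median gene length was 39.4 kb for the members and 27.5 kb for all genes. A density is summed over a whole set, so the longest genes weigh most in it. The members held 202 peaks in 5137 kb of gene body, or 3.93 per 100 kb (3.41 to 4.51). The density was 3.09 for all genes and 3.07 for the other SLC genes. Neighbouring peaks are not independent, so this interval is too narrow. At a score above 200 the densities were 1.64 and 1.24. The median fold was 9.28 both for the members and for all genes. Of the members' gene-body peaks 9.4% fell in an exon (all genes 8.5%), and 27.9% of gene-peak pairs lay in a first intron (27.0%).

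Promoter and gene-body peaks did not always go together. Both were present in 30 members, a promoter peak alone in 13, gene-body peaks alone in 29 and neither in 32. Over all 20033 protein-coding genes the counts in the same order were 7248, 5051, 2713 and 5021. Of the 16 closed SLC6A members 10 had a gene-body peak, and of the 17 closed SLC22A members 6 had one. Among all protein-coding genes 2713 of the 7734 closed ones had a gene-body peak. By family the density ran from 2.86 per 100 kb in SLC5A (1.52 to 4.9) to 5.41 in SLC13A (3.09 to 8.78), with 4.56 in SLC2A, 4.55 in SLC7A, 3.73 in SLC22A, 3.67 in SLC6A and 3.18 in SLC16A, and all these intervals overlapped. SLC16A, first in open promoters at the deposited cut though not at a score above 200, was not first in gene-body peaks.

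The peaks were unevenly spread over the members. Long genes hold more peaks, and the same spread was not counted for all genes. The 10 members with the most held 92 of the 204 gene-peak pairs: SLC6A6 with 13, SLC2A1 with 12, SLC22A2 and SLC22A23 with 11 each, SLC2A9 with 10, SLC7A5 with 9, SLC2A13 and SLC5A10 with 7 each and SLC13A1 and SLC7A7 with 6 each. SLC2A1 stood out for its length, since its 12 peaks lay in a gene of 33.5 kb, and SLC7A5 held 9 in 39.5 kb. SLC2A13 alone among the 10 lay below the density of all genes (3.09 per 100 kb), with 2.02 in 346.6 kb of gene body. The record of SLC22A2 spans 106.6 kb including transcripts outside the canonical one, while its canonical transcript spans 42.1 kb. Of the peaks in SLC5A10, 4 also lay in the overlapping gene FAM83G.

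**Figure D4:**
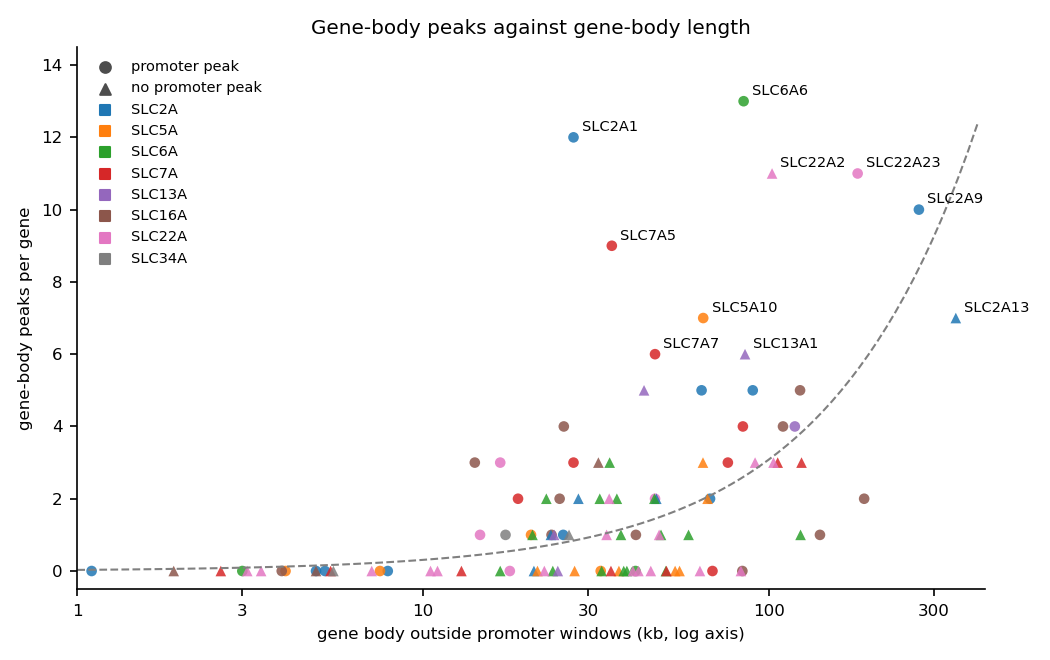
Number of gene-body peaks of each member against the length of its gene body outside promoter windows (kb, log axis), with circles for members with and triangles for members without a promoter peak, coloured by family. The dashed line is the density of all protein-coding genes, 3.09 per 100 kb; SLC6A6, SLC2A1, SLC22A2 and SLC7A5 lie well above it.

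A fold above 40 was reached by 12 gene-body peaks in 9 members. The highest, in an exon of SLC22A5 20.1 kb downstream of the canonical TSS, had 94.81 (81.64 to 109.51) and a pileup of 183, above the same gene's promoter peaks. SLC6A6 followed with 76.26 (64.51 to 89.54) at 70.2 kb, 51.01 at 49.7 kb and 47.41 at 8.19 kb, all in introns. SLC2A9 had 59.77 at 14.6 kb downstream and 46.89 at 24.2 kb upstream of the canonical TSS, the latter within longer transcripts. SLC2A1 had 56.17 (46.17 to 67.7) at 17.6 kb and SLC2A12 55.65 at 34.5 kb. In 17 open members the highest gene-body peak exceeded the highest promoter peak. Neither this count nor that of peaks above a fold of 40 was made for all genes, so neither can be called a trait of the members.

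**Figure D5:**
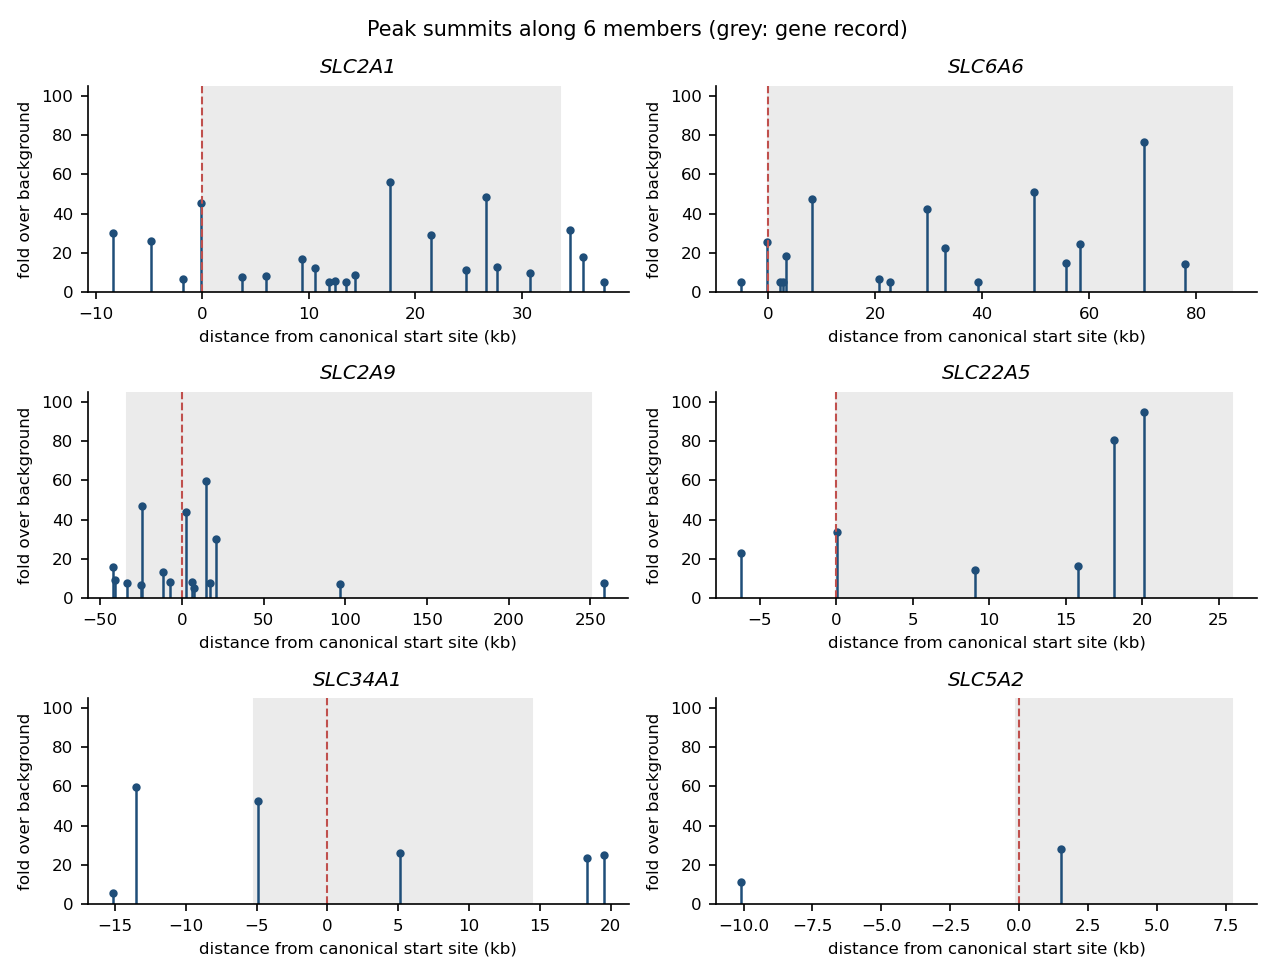
Peak summits (lines with points, fold over background) along 6 members and 10 kb to each side, plotted by distance from the canonical TSS (dashed line, kb), with the gene record in grey. SLC2A1 and SLC6A6 carried 14 summits each inside the gene record, and SLC2A9, SLC34A1 and SLC5A2 had none in the canonical promoter window.

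High gene-body peaks also occurred in genes with a closed promoter. In 5 such members the highest exceeded a fold of 30: SLC2A2 (47.92), SLC13A1 (47.41), SLC22A2 (43.8), SLC34A2 (36.07) and SLC2A5 (35.55). The same count was not made for the closed genes of the whole annotation, so it cannot be called a trait of the members. SLC2A2, SLC13A1 and SLC22A2 are carriers of the proximal tubule. SLC13A1 held 6 gene-body peaks and SLC22A2 held 11. Whether these peaks act on the genes that contain them was not tested.

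The following windows of the same width, in introns and on the gene's own strand in hg38, show the 3 highest such summits: SLC2A2 at chr3:171002365-171002465 (minus), SLC13A1 at chr7:123191308-123191408 (minus) and SLC22A2 at chr6:160254882-160254982 (minus). Capitals mark the AP-1 element, TGACTCA or TGAGTCA, and in SLC22A2 also the element GTTAATNAT of HNF1, a factor of tubule and liver cells. SLC13A1 held none of the 13 motifs.
SLC2A2: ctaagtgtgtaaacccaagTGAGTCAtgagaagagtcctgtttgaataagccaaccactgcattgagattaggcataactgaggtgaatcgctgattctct
SLC13A1: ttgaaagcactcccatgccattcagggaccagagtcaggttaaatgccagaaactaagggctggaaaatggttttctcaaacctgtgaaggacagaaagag
SLC22A2: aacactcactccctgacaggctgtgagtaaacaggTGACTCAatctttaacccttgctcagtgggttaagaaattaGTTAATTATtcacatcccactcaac

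AP-1 was present in 36 of 202 gene-body windows of the members (17.8%, 12.8 to 23.8; all genes 17.1%) and in 1 of 62 promoter windows (1.61%, 0.0408 to 8.66; all genes 6.0%), and with windows of 100 bp to each side in 6 of 62 (9.68%; all genes 10.3%). HNF1 was present in 4 gene-body windows (1.98%, 0.542 to 4.99; all genes 0.85%) and in no promoter window. The core of the hypoxia response element, ACGTG, was found in 7 promoter windows (11.3%, 4.66 to 21.9; all genes 9.17%), among them SLC2A3, SLC2A9, SLC16A7, SLC13A3 and SLC7A6, and in 14 gene-body windows (6.93%; all genes 6.65%). In each case the value of all genes lay inside the members' interval. The NRF2 core TGACNNNGC stood at 6.45% of promoter and 9.9% of gene-body windows (all genes 6.11% and 6.66%), with intervals of 1.79 to 15.7 and 6.15 to 14.9. With windows of 100 bp to each side, the gene-body value was 20.3% (15.0 to 26.5; all genes 12.3%), and this is 1 of many motif values read. TGCATCA, a scrambled AP-1 sequence used as a control, was found in 2.48% of gene-body windows (all genes 1.71%); it overlaps the reverse complement of TGATGCAA and is no neutral control for that element.

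Members that lie side by side in the genome differed from cluster to cluster. On chromosome 11, SLC22A6, SLC22A8, SLC22A24, SLC22A25, SLC22A10 and SLC22A9 lie within 473.9 kb and none was open. That stretch held 1 summit, of fold 7.73, and the TSSs of SLC22A24, SLC22A25, SLC22A10 and SLC22A9 lay in 443.1 kb without any summit. On chromosome 6, SLC22A2 and SLC22A3 were closed as well, but held 11 and 3 gene-body peaks of up to 43.8 and 11.85. On chromosome 5, SLC22A4 and SLC22A5 were both open, with 8 summits in 101.2 kb, while SLC6A19, SLC6A18 and SLC6A3 on the same chromosome had no promoter peak, with 4 summits of at most 8.76 in 243.8 kb. SLC6A3 lies in sequence with an alternative copy in hg38 (191.5 kb aligned), where reads can lose mapping quality, so the low number of summits there has that limit. SLC2A14 and SLC2A3 on chromosome 12 were both open, with 12 summits in 206.5 kb. Stretches of 400 kb or more without a summit held the TSS of 6 members (5.77%) and of 6.26% of all genes.

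The closed promoters were not equally far from a peak. Of the 61 closed members 14 had a summit within 2.5 kb of a TSS and 22 within 5 kb, while 19 had none within 20 kb, 7 of them in SLC22A. The median distance was 8616 bp. The same distances were not computed for the closed genes of the whole annotation, so they cannot be called a trait of the members. The canonical TSS of SLC2A11, SLC5A8, SLC6A3 and SLC22A18 lay in sequence that has an alternative copy in hg38, where reads can lose mapping quality. Of these 4 only SLC22A18 was open, and of all 751 protein-coding genes in such sequence 1.33% were open. Without these members 42 of 100 were open (42.0%, 32.2 to 52.3), against 63.7% of all protein-coding genes outside such sequence. For SLC2A11, SLC5A8 and SLC6A3 this list does not show whether the promoter was accessible.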

How the data were processed

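Reads were trimmed by the authors (fastp) and mapped to hg38 (Bowtie2 2.3.4.3); they then dropped mitochondrial, duplicate and low-quality alignments and called peaks on this library alone with MACS2 2.2.6. A Tn5 shift was not stated, so summits may lie some bases off the cut site. The deposited list of 88676 peaks gives a ratio (fold of summit pileup over background), a −log10 p-value, a −log10 q-value, a score and the summit offset of each peak. The deposited score was used only for stricter alternatives and the deposited p-values and q-values were not tested further. Peak names carry a wild-type tag and the label says empty vector; the label was used.

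Summits were assigned to GENCODE 44 genes on 24 chromosomes with Python 3.11.15 (numpy 2.4.6, pandas 2.3.3, scipy 1.17.1, pysam 0.24.0). Pileups were recovered from the folds with a background of 0.941, and gave whole numbers to within 7e-05. The total read number is unknown. Shares carry Clopper-Pearson intervals and folds and densities Poisson intervals. Alternative copies were found with minimap2 2.31 (at least 10 kb, at most 5% divergence) and promoter copies with BLAST 2.17.0 (at least 550 bp, 95% identity). Motif letters were matched to either strand in windows of 50 bp to each side of a summit. Sequences shown are from the hg38 reference. The assignment was tested on simulated data. The members, lists and motifs were chosen with earlier results of these data known. Some genes enter the counts but are not reported by name here. Of the others, named were, per family, all members with and without a promoter peak, the 3 highest folds, the list members, the 10 members with most gene-body peaks and the highest gene-body peaks. The PNG plots were drawn with matplotlib 3.10.9.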

Additional observations from a re-analysis of the deposited data

How the results depend on the processing

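No paired analysis was possible because the series part used here has a single library, and no replicate could be left out. Of the 64 family values under the 8 alternatives, 59 stayed within the interval given in the report. At a score above 200, the share of open members was 26.9% (all genes 52.0%), that of SLC16A 42.9% and that of SLC13A 0.0%, the share of members with a gene-body peak 40.4% (all genes 30.9%), the density 1.64 per 100 kb (1.24) and the median promoter fold 26.28 (29.37). At a score above 100, the density was 2.47 (1.97). With promoters of 2.5 kb to both sides, 54.8% of the members were open (70.3%). With the canonical transcript alone, 30.8% were open (52.2%), SLC13A and SLC34A both at 0.0%, and with protein-coding transcripts alone SLC34A stood at 0.0%. With CpG content taken within 250 bp of the TSS, the low, middle and high classes of the members stood at 27.8%, 20% and 53.4%, without values for all genes. Where it was recomputed (score above 100 or 200, 2.5 kb promoters, canonical or protein-coding transcripts), the members' promoter share lay below that of all genes, and at both scores and with 2.5 kb promoters their gene-body density lay above it. Added after the data were seen, leaving out members in sequence with an alternative copy gave 42.0% (all genes outside such sequence 63.7%), and leaving out SLC2A4RG and SLC7A6OS gave 40.2%. With windows of 100 bp to each side of the summit, 17 of 30 motif values stayed within their interval and the others rose, since wider windows hold more matches. A pileup under 15 lay behind 9 of the 43 promoter peaks and 42.1% of the members' gene-body peaks, so small folds rest on few reads.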
